A study of Mus musculus with 16 samples.

Results

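Type I interferon response genes were measured in thymocytes at the double-negative (DN) stages of T cell development, before CD4 and CD8 appear. A list of 44 genes, defined by their symbols, was followed in every sample, with the brightest probe set standing for each gene. Of the 44 genes, 42 had a probe set assigned to 1 gene symbol, out of 19531 genes so covered by the arrays, and 37 were bright enough to test, out of 10689 genes tested. The other 2 listed genes, Isg15 and Ifi44, have no level or change given here and enter only the description of promoters.

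The 16 arrays formed 8 groups of 2. All mice were 4 weeks old and carried the MHC haplotype H2g7 of the non-obese diabetic (NOD) mouse, either as NOD mice, which develop autoimmune diabetes, or as B6g7 mice, which are C57BL/6 mice congenic for that haplotype. In each strain, non-transgenic (non-Tg) mice with a polyclonal T cell receptor (TCR) repertoire were set beside BDC mice, which carry rearranged TCR transgenes from BDC2.5, a CD4+ clone that can cause diabetes. CD4+ and CD8+ cells were removed with complement, and lineage-negative cells were sorted as DN2-3 (CD25+) or as DN4 (CD44- CD25-). All 8 non-Tg arrays were from females. Each BDC group held 1 array from a male, replicate 1, and 1 from a female, replicate 2. The labels do not say whether the 2 arrays of a group came from separate mice or from pools, so p-values measure the spread between these samples, which may be technical.

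Type I interferons signal through the receptor chains Ifnar1 and Ifnar2 and the kinases Jak1 and Tyk2 to a complex with Stat2 and Irf9 that binds interferon-stimulated response elements in the promoters of its targets. The targets include sensors of viral RNA and DNA, enzymes that block viral replication, membrane proteins that hinder viral entry, and brakes such as Usp18. Several of these genes are also expressed without infection in lymphocytes and their precursors, and some respond to interferon gamma or to other signals as well.

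Values are log2 of the deposited RMA intensity. A gene was tested where at least 1 group mean reached 7.05, the median over all probe sets, and a level of 5.98, the highest shown by 3 Y-linked genes on arrays of females, was taken as background. Changes are differences of log2 group means from limma, fitted over all 16 arrays, and a change was called at an adjusted p under 0.05. Median intensities ran from 123.1 to 138.2. The 2 NOD DN2-3 arrays stood apart from each other, with a correlation of 0.96 over genes against 0.989 to 0.995 in the other 7 groups, and a median difference of 0.32 over the measured members against 0.11 to 0.21; replicate 1 also had the narrowest spread of values of the 16 arrays. Results that rest on NOD DN2-3 replicate 1 are given with and without it.

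Among markers of the sorted populations, Il2ra, the gene for CD25, had group means of 12.36 to 13.20 in DN2-3 and 9.10 to 10.38 in DN4, and Cd3e was at 12.54 to 12.95. Other early T cell markers differed more between the genotypes. In DN2-3, Rag1 had group means of 11.42 and 11.09 in B6g7 and NOD against 8.20 and 9.57 in BDC/B6g7 and BDC/NOD. Ptcra had 9.26 and 9.34 against 7.41 and 8.28. Summed early T cell markers were 36200 to 39900 in non-Tg DN2-3 and 24800 to 27100 in BDC DN2-3. In DN4 they were 19200 to 23900 and 18700 to 22300. The B cell markers Cd79a and Ms4a1, the NK cell markers Ncr1, Klrb1c and Klrd1, and the myeloid markers Csf1r, Itgam, Adgre1 and Cd14 were at background in all 8 groups. Other genes of those lists were not, with group means of 8.62 to 9.64 for Cd79b, 7.35 to 11.74 for Nkg7, 9.21 to 11.87 for Gzma, 7.72 to 8.73 for Cd68 and 6.73 to 7.30 for Tyrobp. Summed intensities of NK and NKT cell markers were 2600 to 3520 in non-Tg DN2-3, 4140 to 6250 in BDC DN2-3, 1300 to 2040 in non-Tg DN4 and 4780 to 6890 in BDC DN4 cells. Summed intensities of gamma-delta T cell markers were 846 to 1150 in non-Tg cells, 3870 to 6270 in BDC DN2-3 cells and 7960 to 14800 in BDC DN4 cells. Those of mature T cell markers were 3090 to 4950 in non-Tg cells, 3910 to 4140 in BDC DN2-3 cells, 8270 to 9290 in BDC/B6g7 DN4 cells and 5890 to 6270 in BDC/NOD DN4 cells. In DN2-3 the genes of that list went both ways. Ccr7, S1pr1, Klf2 and Cd5 had group means of 7.50, 6.97, 7.45 and 8.36 in B6g7 against 8.73, 8.92, 8.40 and 10.03 in BDC/B6g7. Il7r and Cd69 had 11.11 and 10.56 against 10.07 and 8.81. The directions were the same in NOD. The arrays hold bulk RNA, so fewer cells of a type and less RNA per cell cannot be told apart in any result below.

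The promoters of 4 members are shown because these genes stand for the different courses described below: Ifit1, which was lower in BDC DN2-3 cells, Oas3, which was higher in BDC DN4 cells, and Bst2 and Ifitm2, which were lower in BDC DN4 cells. Each is the 250 bases upstream of the RefSeq start of the gene in GRCm38.p6, written 5′ to 3′ on the gene's own strand, and it is the C57BL/6J reference sequence; NOD alleles were not analysed here. Capitals mark matches, on either strand, to the core of the interferon-stimulated response element, written as GAAA, any 2 bases and GAAA. Ifit1 lies on the forward strand (chr19:34640639-34640888) and holds 2 matches, the nearer 76 bases from the start. Oas3 lies on the reverse strand (chr5:120777660-120777909) with 1 match 66 bases from the start. Bst2 lies on the reverse strand (chr8:71537473-71537722), and its 2 matches, GAAAATGAAA and GAAACTGAAA, overlap, with the nearer 115 bases from the start. Ifitm2 lies on the reverse strand (chr7:140955962-140956211) with 1 match 37 bases from the start.
Ifit1: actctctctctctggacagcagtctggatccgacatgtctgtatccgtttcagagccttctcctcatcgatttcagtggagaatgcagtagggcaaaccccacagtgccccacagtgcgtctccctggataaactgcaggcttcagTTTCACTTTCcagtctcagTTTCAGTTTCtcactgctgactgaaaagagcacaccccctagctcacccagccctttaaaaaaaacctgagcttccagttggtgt
Oas3: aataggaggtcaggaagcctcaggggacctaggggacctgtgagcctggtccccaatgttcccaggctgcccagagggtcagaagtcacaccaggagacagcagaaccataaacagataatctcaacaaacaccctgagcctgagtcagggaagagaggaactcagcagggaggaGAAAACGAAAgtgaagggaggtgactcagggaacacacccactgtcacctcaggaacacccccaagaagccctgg
Bst2: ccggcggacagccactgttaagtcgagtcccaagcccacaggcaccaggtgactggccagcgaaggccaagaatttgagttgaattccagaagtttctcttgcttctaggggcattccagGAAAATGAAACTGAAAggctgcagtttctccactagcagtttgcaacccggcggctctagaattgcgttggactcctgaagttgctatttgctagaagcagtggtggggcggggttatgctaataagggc
Ifitm2: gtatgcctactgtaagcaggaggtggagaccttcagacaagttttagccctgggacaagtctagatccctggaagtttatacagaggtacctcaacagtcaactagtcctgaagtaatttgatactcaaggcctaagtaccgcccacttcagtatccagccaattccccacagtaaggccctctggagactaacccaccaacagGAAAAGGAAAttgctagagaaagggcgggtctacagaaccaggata

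Of 33 members with a RefSeq promoter in the table used, 9 (27.3%) held this core, namely Ifit1, Ifit3, Isg15, Stat2, Oas1a, Oas3, Rsad2, Bst2 and Ifitm2, against 936 of 27025 genes of that table (3.46%). At least 2 matches were found in 5 members and in 57 of all genes. TTCNNNGAA, the core of the gamma-activated site, a promoter element of interferon gamma signalling, was in 6 of the 33 members (18.2%) and in 2197 of the 27025 genes (8.13%). A match is a run of letters and not a measured binding site. Members with the core did not share 1 course: Ifit1 and Bst2 both hold 2 matches and were lower in BDC cells at different stages.

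Over the 8 groups, the members took 3 main courses. In non-Tg cells most of them were higher in DN2-3 than in DN4. In BDC cells most were not, as levels in DN2-3 were lower than in non-Tg DN2-3 cells and, for a subset, levels in DN4 were higher than in non-Tg DN4 cells. Another course was that of Ifitm2, with a fall from DN2-3 to DN4 that was larger in BDC cells, and of Ifitm3, for which this was so in B6g7 and the fall in NOD was of like size in both genotypes. Ifit2 followed neither course and correlated at -0.72 with the median of the other members over the group means. Bst2, Irf1 and Tor3a correlated with it at -0.22, -0.21 and -0.18. After each of the 42 measured members was centred on its own mean over the arrays, the median member level was 0.34 in B6g7 DN2-3 and 0.19 in NOD DN2-3, and -0.18 in both non-Tg DN4 groups. It was -0.04 and -0.18 in BDC/B6g7 and BDC/NOD DN2-3, and 0.13 and -0.11 in BDC/B6g7 and BDC/NOD DN4. The group with the highest mean was B6g7 DN2-3 for 12 members, NOD DN2-3 for 13 and BDC/B6g7 DN4 for 10.

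**Figure D1:**
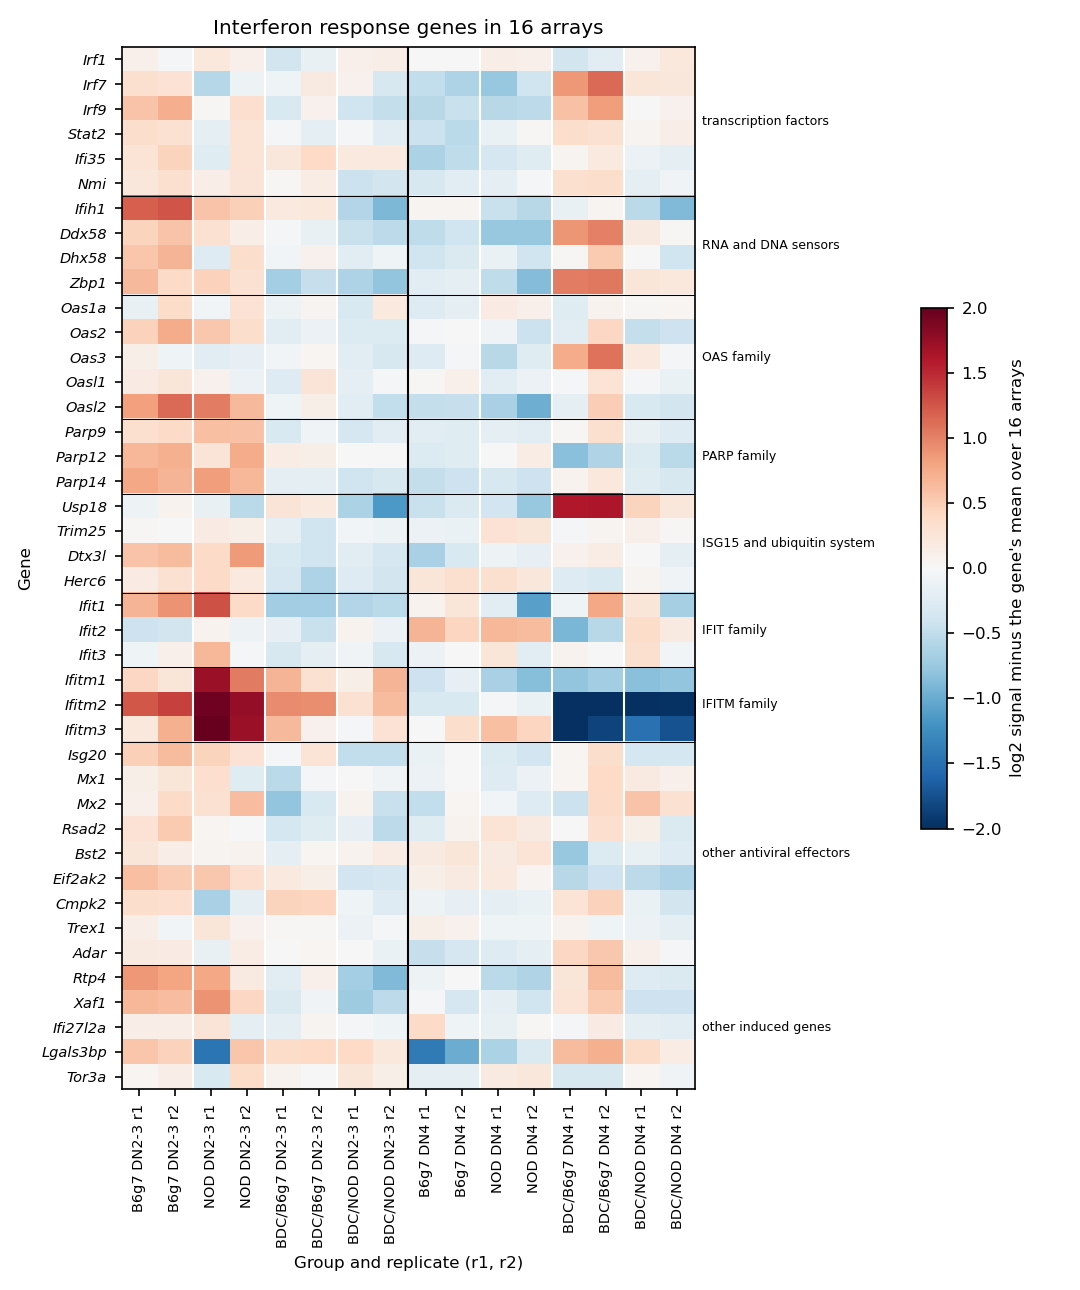
Levels of the 42 measured members on the 16 arrays, as log2 intensity minus the member's mean over all arrays, with colours stopping at 2 in either direction. Most members are red on the 4 non-Tg DN2-3 arrays, many are red on the BDC/B6g7 DN4 arrays, and the IFITM genes are blue on all 4 BDC DN4 arrays.

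**Figure D2:**
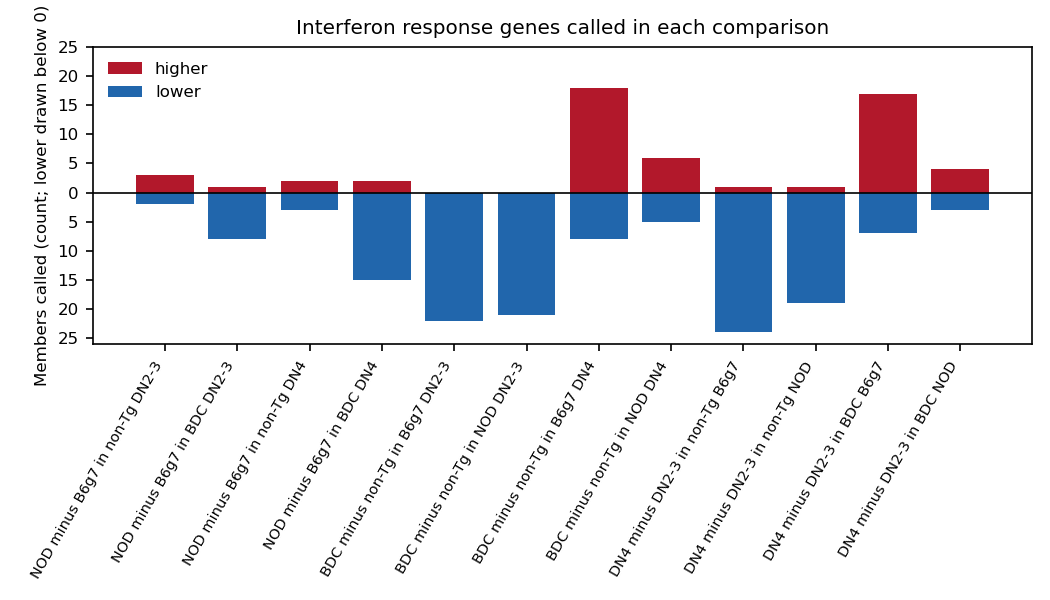
Number of the 37 tested members called higher (bars up) or lower (bars down) by limma in each of the 12 comparisons within a strain, genotype or stage. In DN2-3 cells the transgene comparison has 22 lower calls in B6g7 and 21 in NOD and no bar up, while in B6g7 DN4 cells it has 18 higher and 8 lower.

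The transgene comparison asks how early expression of 1 rearranged TCR changes cells at a given stage. In DN2-3 cells, averaged over the strains, 24 of the 37 tested members were lower in BDC than in non-Tg cells and 0 were higher, where 19.3% of all tested genes were called lower and 29.8% higher. At an unadjusted p under 0.05, limma also gave 0 higher, and 25 lower. The median change over the 42 measured members was -0.41, with 37 below 0, against -0.03 over all genes. The lower members included all 4 sensors tested, all 3 PARP genes, all 3 IFITM genes, 3 of 6 transcription factors and their partners, 3 of 4 genes of the ISG15 and ubiquitin system, and 2 of 5 OAS genes. Of these sensors, Dhx58 passed the filter only through the B6g7 DN2-3 group. In B6g7 alone 22 members were lower and 0 higher (12.5% and 16.8% of all genes), and in NOD alone 21 and 0 (14.1% and 21.5%), with 0 higher in either strain at an unadjusted p under 0.05. Without NOD DN2-3 replicate 1, the averaged count was again 24, of which 23 were shared, and the NOD count was 20, of which 19 were shared. Without B6g7 DN2-3 replicate 2 the B6g7 count was 12.

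Among the sensors, Ifih1, also known as MDA5, which detects long viral RNA, was at 8.72 and 8.79 on the B6g7 DN2-3 arrays and 8.11 and 8.01 on the NOD DN2-3 arrays, against 7.72 and 7.74 in BDC/B6g7 and 6.94 and 6.63 in BDC/NOD. Every BDC array was below every non-Tg array. The change was -1.15 ± 0.09 (SE; limma adjusted p = 6.01e-07; n = 4 arrays a genotype), or 2.22-fold. Zbp1, a sensor of Z-form nucleic acids that can start cell death, was at 8.38 and 8.11 in B6g7 and 8.18 and 8.03 in NOD, against 7.05 and 7.27 in BDC/B6g7 and 7.10 and 6.94 in BDC/NOD. The genotypes again did not overlap, and the change was -1.08 ± 0.09 (adjusted p = 1.30e-06). Ddx58, also known as RIG-I, a sensor of short viral RNA, changed by -0.65 ± 0.07 (adjusted p = 1.13e-05).

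Of the effectors, Ifit1, which binds viral RNA that lacks the host cap mark, was at 7.24 and 7.46 in B6g7 and 7.84 and 6.95 in NOD, against 5.86 and 5.88 in BDC/B6g7 and 5.97 and 6.02 in BDC/NOD. Ifit1 passed the filter only through the non-Tg DN2-3 groups. All BDC arrays lay below all non-Tg arrays, and both BDC/B6g7 arrays were at background. Ifit1 was therefore lower by at least 1.38 on the log2 scale, with a limma adjusted p of 4.98e-04. In NOD alone the Ifit1 call was lost without NOD DN2-3 replicate 1, at -0.95 (adjusted p = 0.0643), and averaged over the strains Ifit1 fell by at least 1.16 (adjusted p = 6.08e-04). Oasl2, an OAS-like protein, was at 8.45 and 8.77 in B6g7 and 8.66 and 8.29 in NOD, against 7.55 and 7.75 in BDC/B6g7 and 7.42 and 7.15 in BDC/NOD. The levels did not overlap, and the change was -1.07 ± 0.14 (adjusted p = 6.44e-05).

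Rtp4, a chaperone-like protein induced by interferon, was at 8.44 and 8.37 in B6g7 and 8.34 and 7.76 in NOD, against 7.36 and 7.67 in BDC/B6g7 and 6.90 and 6.69 in BDC/NOD. Xaf1, which promotes apoptosis, was at 7.65 and 7.61 in B6g7 and 7.89 and 7.41 in NOD, against 6.70 and 6.92 in BDC/B6g7 and 6.28 and 6.47 in BDC/NOD. For both genes every BDC array was below every non-Tg array. Xaf1 passed the filter only through the non-Tg DN2-3 groups and BDC/B6g7 DN4. Rtp4 changed by -1.07 ± 0.12 (limma adjusted p = 1.97e-05) and Xaf1 by -1.05 ± 0.11 (adjusted p = 9.80e-06). Without NOD DN2-3 replicate 1 the averaged changes were -1.13 for Ifih1, -1.05 for Zbp1, -0.98 for Oasl2, -0.92 for Rtp4 and -0.93 for Xaf1, and all 5 were still called.

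Parp14, Parp9 and Dtx3l, neighbours on chromosome 16 whose products act in mono-ADP-ribosylation and ubiquitin signalling, changed by -1.0 ± 0.07, -0.70 ± 0.08 and -0.92 ± 0.10, all called. Isg20, an RNA exonuclease, changed by -0.65 ± 0.09, and Herc6, the mouse ligase that attaches Isg15 to proteins, by -0.66 ± 0.08. Oas2, which makes the messenger that activates RNase L, changed by -0.74 ± 0.12. Irf9, the DNA-binding part of the complex with Stat2, changed by -0.69 ± 0.10 and Eif2ak2, the kinase PKR that stops translation, by -0.60 ± 0.07. Not called were Irf7, the master factor of interferon alpha production, at -0.02 ± 0.12, Usp18, which removes Isg15 and blocks the receptor, at -0.15 ± 0.12, Oas3 at -0.05 ± 0.10, and Ifit2 at 0.04 ± 0.10. The calls of Ifitm1 (-0.41 ± 0.15), Dhx58 (-0.40 ± 0.14) and Stat2 (-0.30 ± 0.10) were lost under several alternatives, and Ifitm1 was at -0.24 (adjusted p = 0.122) without NOD DN2-3 replicate 1.

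The IFITM genes, whose proteins hinder fusion of viruses with cell membranes, differed between the strains in this comparison. Ifitm3 was at 8.20 and 8.70 in B6g7 against 8.64 and 8.08 in BDC/B6g7, and these arrays overlapped. In NOD it was at 10.55 and 9.72 against 7.98 and 8.29 in BDC/NOD, with no overlap. The change was -0.10 ± 0.28 in B6g7, not called, and -2.0 ± 0.28 in NOD, and the difference between the strains was -1.91 ± 0.40 (limma adjusted p = 0.0377). Ifitm2 was at 11.61 and 11.74 in B6g7 and 12.31 and 12.12 in NOD, against 11.31 and 11.30 in BDC/B6g7 and 10.68 and 11.00 in BDC/NOD. BDC arrays were below non-Tg arrays in both strains, and the change differed between the strains by -1.0 ± 0.17 (adjusted p = 0.0108). These 2 were the only members called in the strain-by-transgene interaction in DN2-3 cells, where 0.823% of all genes were called in that direction and 0.327% in the other, in which 0 members were called, also at an unadjusted p under 0.05 in limma. Without NOD DN2-3 replicate 1 the differences were -1.49 (adjusted p = 0.0312) for Ifitm3 and -0.91 (adjusted p = 0.0111) for Ifitm2. The count was 0 without B6g7 DN2-3 replicate 1, BDC/B6g7 DN2-3 replicate 1 or BDC/NOD DN2-3 replicate 1, where limma gave 6, 9 and 7 at an unadjusted p under 0.05, while leaving out NOD DN2-3 replicate 2 gave 13. A count of 1 was left without B6g7 DN2-3 replicate 2, BDC/NOD DN2-3 replicate 2 or any 1 array of B6g7 DN4, NOD DN4 or BDC/NOD DN4. With the replicate number as a block 1 was called, Ifitm2.

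Markers of other cells moved with the transgene in DN2-3 cells. The summed intensity of plasmacytoid dendritic cell markers, cells that make much interferon alpha, was 3670 to 5630 in non-Tg DN2-3 and 1860 to 2130 in BDC DN2-3. Of that list, Ly6d had group means of 10.75 and 10.66 in B6g7 and NOD against 8.20 and 8.11 in BDC/B6g7 and BDC/NOD, and Ccr9, which thymocytes also express, had 10.93 and 9.93 against 8.98 and 9.51. Siglech, a marker of those cells, had group means of 6.09 to 6.37 in all groups. Lyz2, a myeloid gene, had group means of 7.75 and 7.74 in non-Tg DN2-3 against 5.72 to 6.11 elsewhere. Summed myeloid and dendritic markers were 756 to 1280 over all arrays. The part of these differences, and of the early T, NK, gamma-delta and mature T cell markers above, in the members' levels was not tested.

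**Figure D3:**
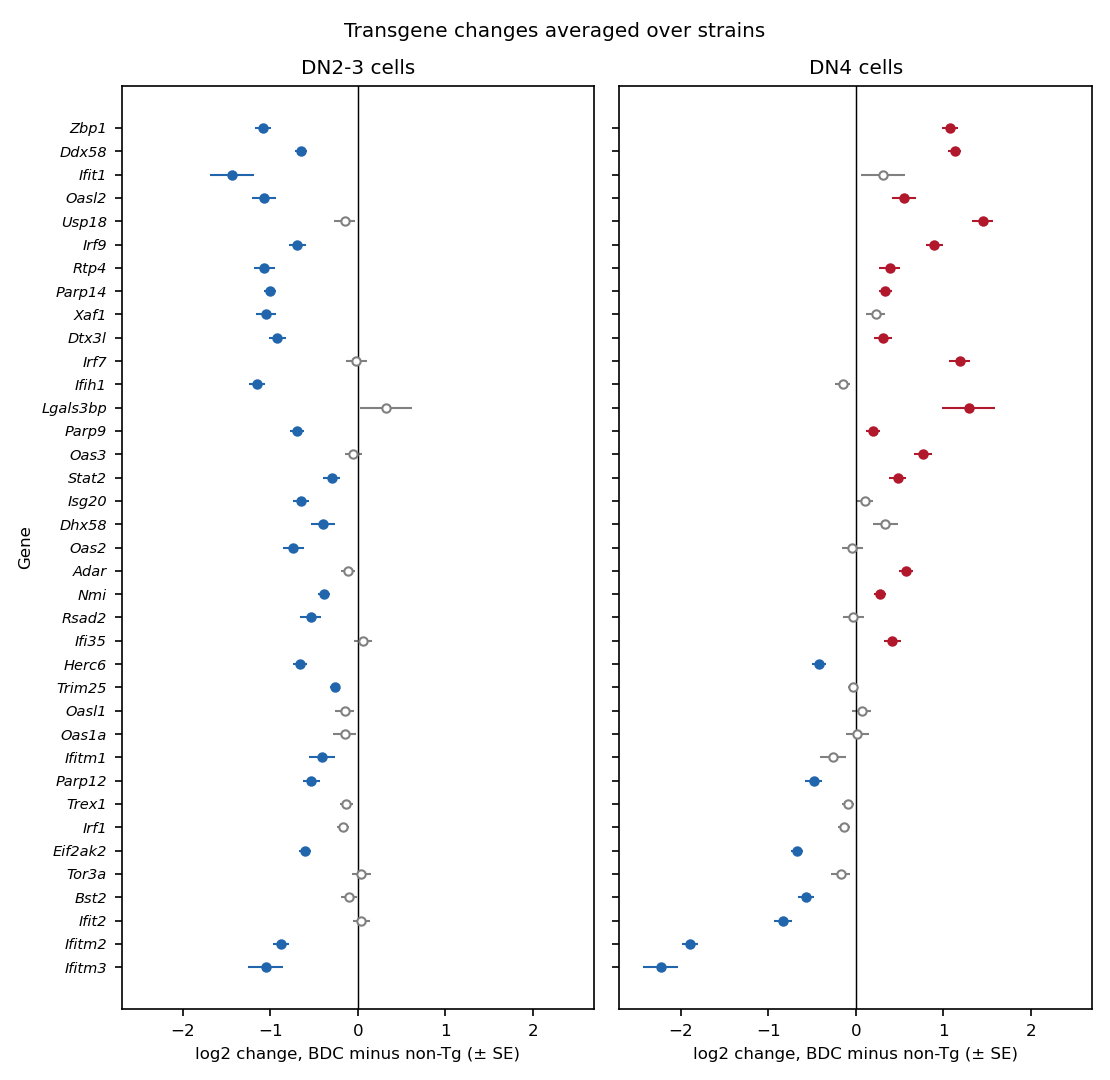
Change of each tested member between BDC and non-Tg cells, averaged over the strains, as log2 difference with its SE, in DN2-3 and in DN4; filled blue points are called lower, filled red points called higher, and open grey points not called. In DN2-3 every filled point is blue, while in DN4 16 are red and 7 are blue, with Ifitm3 and Ifitm2 the lowest at -2.23 and -1.89.

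In DN4 cells the members divided. Averaged over the strains, 16 of the 37 were higher in BDC cells and 7 were lower, where 28.7% of all tested genes were called higher and 30.8% lower. The median change over the 42 measured members was 0.20, against -0.07 over all genes. Higher members were 5 of 6 transcription factors and their partners, 2 of 4 sensors, 2 of 5 OAS genes, 2 of 3 PARP genes, 2 of 4 genes of the ISG15 and ubiquitin system, 1 of 6 other antiviral effectors and 2 of 4 other induced genes. In B6g7 alone 18 were higher and 8 lower (30.1% and 29.2% of all genes), and in NOD alone 6 were higher and 5 lower (10.6% and 14.8%). The NOD count fell from 11 to 6 without NOD DN4 replicate 1.

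Usp18 was at 7.76 and 7.92 in B6g7 and 7.83 and 7.44 in NOD DN4 cells, against 9.81 and 9.83 in BDC/B6g7 and 8.65 and 8.43 in BDC/NOD. All BDC arrays lay above all non-Tg arrays, those of BDC/B6g7 highest, and the change was 1.45 ± 0.12 (limma adjusted p = 4.78e-07). Irf7 was at 7.01 and 6.89 in B6g7 and 6.75 and 7.10 in NOD, against 8.38 and 8.64 in BDC/B6g7 and 7.75 and 7.73 in BDC/NOD. The genotypes did not overlap, and the change was 1.19 ± 0.12 (adjusted p = 2.66e-06). Ddx58 was at 8.53 and 8.63 in B6g7 and at 8.27 on both NOD arrays, against 9.92 and 10.04 in BDC/B6g7 and 9.21 and 9.05 in BDC/NOD. It too had no overlap, with a change of 1.13 ± 0.07 (adjusted p = 2.34e-08).

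Zbp1 was at 7.50 and 7.53 in B6g7 and 7.22 and 6.86 in NOD, against 8.75 and 8.78 in BDC/B6g7 and 7.96 and 7.94 in BDC/NOD, with no overlap and a change of 1.08 ± 0.09 (limma adjusted p = 4.06e-07). Irf9 was at 7.84 and 7.96 in B6g7 and 7.84 and 7.88 in NOD, against 8.98 and 9.24 in BDC/B6g7 and 8.39 and 8.49 in BDC/NOD. Again the BDC arrays were all above the others, by 0.90 ± 0.10 (adjusted p = 4.04e-06). Lgals3bp, a secreted glycoprotein that binds galectins, was at 9.06 and 9.48 in B6g7 and 9.83 and 10.17 in NOD, against 11.10 and 11.17 in BDC/B6g7 and 10.83 and 10.62 in BDC/NOD. It did not overlap, but the change of 1.29 ± 0.30 (adjusted p = 0.00198) had the widest error of the members called here, was 0.72 and not called in NOD alone, and lost its call without the 4 arrays of males. Oas3 changed by 0.77 ± 0.10, Adar, which edits double-stranded RNA, by 0.57 ± 0.08, and Stat2 by 0.48 ± 0.10, all called.

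Members that fell in BDC DN4 cells were led by the IFITM genes. Ifitm2 was at 10.06 and 10.07 in B6g7 and 10.34 and 10.23 in NOD DN4 cells, against 8.14 and 8.37 in BDC/B6g7 and 8.23 and 8.39 in BDC/NOD. Ifitm3 was at 7.99 and 8.35 in B6g7 and 8.59 and 8.42 in NOD, against 5.54 and 6.14 in BDC/B6g7 and 6.50 and 6.25 in BDC/NOD, with BDC/B6g7 replicate 1 at background. Both genes were low on all 4 BDC arrays without overlap, and changed by -1.89 ± 0.09 for Ifitm2 (3.71-fold; limma adjusted p = 1.50e-09) and -2.23 ± 0.20 for Ifitm3 (adjusted p = 6.34e-07). The array at background leaves the averaged Ifitm3 change without an exact value, and in NOD alone it was -2.13 ± 0.28. Unlike in DN2-3, neither of the 2 genes was called in the strain-by-transgene interaction in DN4. The 3 probe sets of Ifitm2 gave -1.89, -1.42 and -1.57.

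Another 5 members were lower. Ifit2, an RNA-binding member of the Ifit1 family, was at 8.79 and 8.53 in B6g7 and 8.77 and 8.74 in NOD, against 7.19 and 7.55 in BDC/B6g7 and 8.48 and 8.28 in BDC/NOD. The BDC arrays were all lower, by a wide margin only in B6g7, and the averaged change was -0.83 ± 0.10 (limma adjusted p = 1.04e-05). Bst2, or tetherin, which holds budding virus at the cell surface, was at 8.48 and 8.54 in B6g7 and 8.48 and 8.57 in NOD, against 7.55 and 8.03 in BDC/B6g7 and 8.16 and 8.05 in BDC/NOD. It did not overlap and changed by -0.57 ± 0.09 (adjusted p = 1.49e-04). Eif2ak2 changed by -0.67 ± 0.07, Parp12 by -0.48 ± 0.10 and Herc6 by -0.42 ± 0.08, and these 3 were thus lower in BDC cells at both stages.

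**Figure D4:**
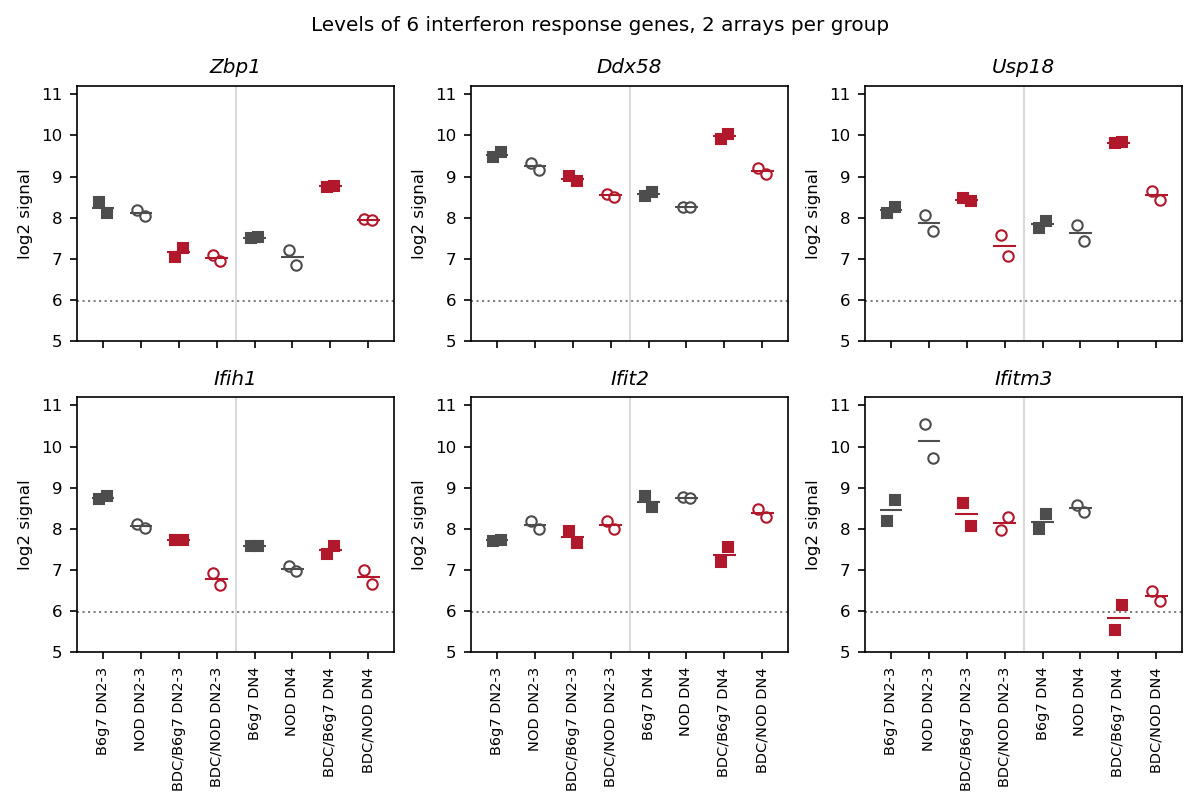
Log2 intensity of Zbp1, Ddx58, Usp18, Ifih1, Ifit2 and Ifitm3 on each array, by group; filled squares are B6g7 and open circles NOD, grey is non-Tg and red is BDC, a dash is the group mean and the dotted line is the background level of 5.98. Zbp1 and Ddx58 fall from DN2-3 to DN4 in non-Tg cells and rise in BDC cells, and Ifitm3 is near the background level on the BDC DN4 arrays.

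In DN4 cells, too, other genes moved with the transgene. Summed plasmacytoid dendritic cell markers were 3770 to 4040 in B6g7, 2760 to 2820 in NOD, 10500 to 11400 in BDC/B6g7 and 8310 to 8380 in BDC/NOD. Ccr9 had group means of 13.22 and 12.79 in BDC/B6g7 and BDC/NOD DN4 cells against 10.13 and 9.71 in B6g7 and NOD, while Ly6d went the other way, with 7.18 and 7.75 against 10.69 and 9.82. Summed NK and NKT, mature and gamma-delta T cell markers were also higher in BDC DN4 cells, as given above. The sums of all these lists, and of the plasmacytoid list, were higher in BDC/B6g7 than in BDC/NOD DN4 cells. They were 13700 to 14800 and 7960 to 8450 for gamma-delta T cells, and 6830 to 6890 and 4780 to 5340 for NK and NKT cells. Of the NK and NKT list, Nkg7 had group means of 11.74 against 10.20, but Gzma did not follow, with 11.69 against 11.87. Within the mature T cell list Cd69, Cd8a and Cd4 went the other way, with 10.27, 6.95 and 6.79 against 11.15, 8.54 and 7.52. The part of these markers in the result was not tested.

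The transgene change differed between the stages for 27 members, 23 with a higher and 4 with a lower change in DN4 than in DN2-3, where 26.3% and 31.5% of all genes were so called. The median difference over the 42 measured members was 0.68, with 36 above 0, against -0.02 over all genes. Zbp1, with the levels given above, had the largest difference at 2.16 ± 0.13 (limma adjusted p = 2.74e-08), since it fell by 1.08 in DN2-3 and rose in DN4. Ddx58 followed at 1.78 ± 0.10 (adjusted p = 1.71e-08). With levels under background raised to it, Ifit1 differed by 1.58 (limma on the measured values, adjusted p = 9.24e-04). This is not a bound, since BDC/NOD DN4 replicate 2 was also under background, at 5.90. The DN4 levels of Ifit1 were 6.63 and 6.81 in B6g7, 6.35 and 5.47 in NOD, 6.47 and 7.33 in BDC/B6g7 and 6.80 and 5.90 in BDC/NOD, which overlapped. Oasl2 differed by 1.62 ± 0.20 (adjusted p = 1.59e-05), and its DN4 levels were 7.16 and 7.17 in B6g7, 6.99 and 6.66 in NOD, 7.44 and 8.13 in BDC/B6g7 and 7.34 and 7.27 in BDC/NOD. Those of BDC were higher without overlap. The 4 members with a more negative change in DN4 were Ifit2, Bst2, Ifitm2 and Ifitm3. Without NOD DN2-3 replicate 1 the counts were 24 and 4, and Zbp1, Ddx58 and Oasl2 differed by 2.12, 1.73 and 1.53. Ifit1, with levels raised to background, then differed by 1.36.

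In DN4 cells the transgene change differed between the strains for 10 members, 9 more negative in NOD and 1, Ifit2, more positive, where 10.9% and 9.20% of all genes were so called. All 9 were called higher in BDC than in non-Tg DN4 cells of B6g7, and 4 of them also in NOD, namely Usp18, Irf7, Irf9 and Ddx58. Usp18 rose by 1.98 ± 0.18 in B6g7 and 0.91 ± 0.18 in NOD, a difference of -1.08 ± 0.25 (limma adjusted p = 0.00876). Irf7 rose by 1.56 and 0.81, a difference of -0.75 ± 0.25 (adjusted p = 0.0496), and Ddx58 by 1.40 and 0.86, a difference of -0.55 ± 0.14 (adjusted p = 0.0151). Xaf1, Stat2, Irf9, Nmi, Adar and Parp14 differed by -0.71, -0.66, -0.63, -0.63, -0.62 and -0.50. Ifit2 fell by 1.29 in B6g7, while its change in NOD was -0.37 and not called, and the strains differed by 0.92 ± 0.20 (adjusted p = 0.00639). Of the 42 measured members the median transgene change in DN4 was 0.25 in B6g7 and 0.01 in NOD. The count was 16 without NOD DN2-3 replicate 1 or replicate 2, 5 without B6g7 DN4 replicate 1, NOD DN4 replicate 2 or BDC/B6g7 DN4 replicate 2, 6 without BDC/NOD DN4 replicate 1, 3 without BDC/NOD DN4 replicate 2 and 0 without the 4 arrays of males, where limma at an unadjusted p under 0.05 gave 14.

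**Figure D5:**
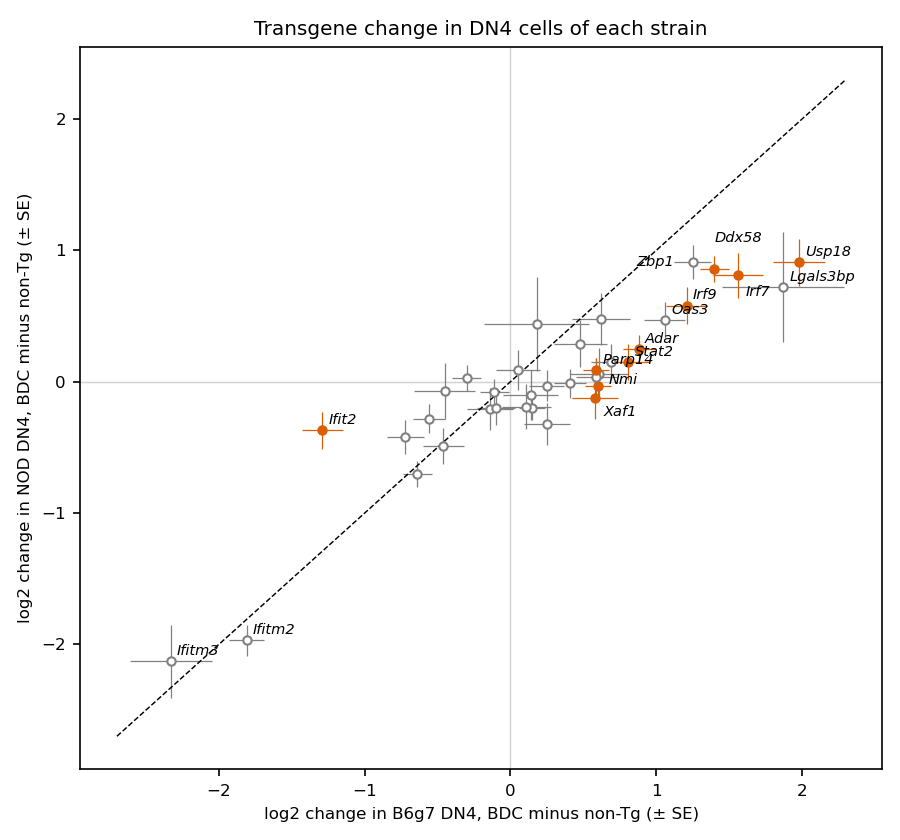
Transgene change of each tested member in DN4 cells, B6g7 on the horizontal and NOD on the vertical axis, both as log2 difference with SE; filled orange points are called in the strain-by-transgene interaction and the dashed line marks equal change. Most of the orange points are below the line on the right, with Usp18 at 1.98 and 0.91, and Ifit2 alone is above it on the left.

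The strain comparison sets the diabetes-prone NOD background against B6g7 with the same MHC. Whether the array probes match the NOD allele of each gene was not tested. Averaged over genotypes and stages, 16 members were lower in NOD and 4 were higher, where 14.9% and 26.8% of all tested genes were called lower and higher. The lower members included all 4 sensors, 3 of 5 OAS genes and 3 of 6 transcription factors and their partners. Among the sensors, Dhx58 passed the filter only through the B6g7 DN2-3 group. The median change over the 42 measured members was -0.13, with 28 below 0, against 0 over all genes. By context the lower and higher counts were 2 and 3 in non-Tg DN2-3. Of the 10689 tested genes 596 and 534 were so called there, or 10.6% in either direction. The counts were 8 and 1 in BDC DN2-3 (5.66% and 3.53% of all genes called lower and higher), 3 and 2 in non-Tg DN4 (4.75% and 14.0%), and 15 and 2 in BDC DN4 (15.3% and 25.8%). Without NOD DN2-3 replicate 1 the averaged counts were 18 and 6, and those in non-Tg DN4 were 6 and 7. In non-Tg DN4 cells the median change of all tested genes was 0.13 toward NOD, 0.02 after a second quantile normalization and 0.21 after centring on array medians, so counts in each direction there depend on the scaling.

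Except in BDC DN4, the counts within a context rested on single arrays. In BDC DN4, 17 were called, and 14 to 24 with any 1 array left out. In non-Tg DN2-3, 5 members were called, 3 without B6g7 DN2-3 replicate 1 or replicate 2, and 14 without NOD DN2-3 replicate 2. In BDC DN2-3, 9 were called, 5 without BDC/B6g7 DN2-3 replicate 2, 3 without BDC/NOD DN2-3 replicate 1 and 5 without its replicate 2. In non-Tg DN4, 5 were called, 13 without either NOD DN2-3 array, 0 without B6g7 DN4 replicate 1 or NOD DN4 replicate 2, where limma at an unadjusted p under 0.05 gave 6 and 5, and 2 without B6g7 DN4 replicate 2 or NOD DN4 replicate 1. Leaving out any 1 array of B6g7 DN2-3, BDC/B6g7 DN2-3, BDC/NOD DN2-3 or BDC/NOD DN4 gave 3.

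Ifih1, measured by 1 probe set, was lower in NOD in every context. Its log2 changes were -0.69, -0.95, -0.55 and -0.66 in non-Tg DN2-3, BDC DN2-3, non-Tg DN4 and BDC DN4, all called. Its DN4 levels were 7.58 and 7.59 in B6g7 and 7.39 and 7.58 in BDC/B6g7, against 7.09 and 6.97 in NOD and 7.0 and 6.65 in BDC/NOD, without overlap between the strains at this stage. The averaged change was -0.71 ± 0.06 (limma adjusted p = 1.57e-06). Usp18 in DN2-3 cells was at 8.11 and 8.27 in B6g7, 8.06 and 7.67 in NOD, 8.47 and 8.40 in BDC/B6g7 and 7.58 and 7.06 in BDC/NOD. The NOD arrays were lower, clearly so in BDC cells, and with DN4 included the averaged change was -0.73 ± 0.09 (adjusted p = 2.55e-05). Rtp4 in DN4 cells was at 7.47 and 7.58 in B6g7, 7.03 and 6.97 in NOD, 7.81 and 8.21 in BDC/B6g7 and 7.31 and 7.28 in BDC/NOD. Again the NOD arrays were lower within each genotype, and the averaged change was -0.58 ± 0.09 (adjusted p = 1.55e-04).

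Ddx58 in DN2-3 cells was at 9.47 and 9.60 in B6g7, 9.34 and 9.17 in NOD, 9.01 and 8.88 in BDC/B6g7 and 8.58 and 8.51 in BDC/NOD. NOD arrays were below B6g7 arrays in each genotype, and the averaged change was -0.46 ± 0.05 (limma adjusted p = 9.07e-06). Higher in NOD were Ifitm3, by 0.58 ± 0.14 (adjusted p = 0.00463), Ifit2, by 0.44 ± 0.07 (adjusted p = 2.77e-04), Irf1, a transcription factor needed for several steps of T cell development, by 0.27 ± 0.05, and Trim25, a ligase that activates Ddx58, by 0.19 ± 0.04. The Irf1 call was lost with the mean of its probe sets, which disagreed, at 0.27 and -0.17. With levels under background raised to it, the averaged Ifitm3 change was 0.53. By context the Ifitm3 change was -0.22 in BDC DN2-3, 0.33 in non-Tg DN4 and 0.54 in BDC DN4, or 0.32 with levels so raised, none called. It was called only in non-Tg DN2-3 cells, at 1.68 ± 0.28 (adjusted p = 0.00185), or 1.27 (adjusted p = 0.00683) without NOD DN2-3 replicate 1. Ifitm1 and Ifitm2 were also called there, at 1.06 ± 0.21 and 0.54 ± 0.12; without that array Ifitm1 was at 0.72 (adjusted p = 0.033) and Ifitm2 at 0.44 (adjusted p = 0.0584). In BDC DN2-3 cells Ifitm2 went the other way and was lower in NOD, with a log2 change of -0.46. Ifit2 in BDC DN4 cells was higher in NOD by 1.01 ± 0.14 (adjusted p = 8.29e-05), or 2.02-fold.

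The stage comparison sets cells sorted as DN4 against cells sorted as DN2-3. In non-Tg mice the TCR beta gene is rearranged in DN2-3 and has been selected by DN4. BDC mice carry TCR transgenes that are already rearranged, so this course does not describe their cells. In non-Tg B6g7 cells 24 members were lower in DN4 and 1, Ifit2, was higher. Of the 10689 tested genes 2670 were called lower and 1901 higher there, or 42.8% in either direction. In non-Tg NOD cells 19 were lower and 1, again Ifit2, was higher (12.3% and 26.3% of all genes), and 24 were lower and 1 higher without NOD DN2-3 replicate 1, with 19 of the 20 calls kept. In BDC/B6g7 cells, in contrast, 17 were higher and 7 lower (20.4% and 30.4%), and in BDC/NOD cells 4 were higher and 3 lower (7.67% and 3.41%). The BDC/B6g7 count fell from 24 to 15 without BDC/B6g7 DN4 replicate 2, and the BDC/NOD count rose from 7 to 12 without either NOD DN2-3 array. The 4 higher in BDC/NOD were Zbp1, Ddx58, Usp18 and Irf9, which were also among the 17 of BDC/B6g7. Zbp1 changed by -0.73 and -1.06 in non-Tg B6g7 and NOD and by 1.60 and 0.93 in BDC/B6g7 and BDC/NOD, and Ddx58 by -0.96, -0.98, 1.04 and 0.58, all called. That the stage change depends on the genotype is the same measurement as the transgene-by-stage difference given above.

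Averaged over strains and genotypes, 14 members were lower in DN4 and 4 higher (14.1% and 13.4% of all genes). Ifitm2 changed most, by -2.28 ± 0.06 (limma adjusted p = 2.74e-11), a 4.85-fold change, and was lower in DN4 in every strain and genotype at -1.61, -1.93, -3.05 and -2.53 for B6g7, NOD, BDC/B6g7 and BDC/NOD. Ifitm3 changed by -1.55 ± 0.14 (adjusted p = 2.41e-06), and in the same order of groups by -0.28 ± 0.28, not called, -1.63 ± 0.28, -2.52 ± 0.28 and -1.76 ± 0.28. With levels under background raised to it, the averaged Ifitm3 change was -1.49 and that in BDC/B6g7 -2.3. Ifitm1 was at 8.0 and 7.83 in B6g7, 9.31 and 8.63 in NOD, 8.26 and 7.90 in BDC/B6g7 and 7.70 and 8.26 in BDC/NOD DN2-3 cells. In DN4 cells it was at 7.18 and 7.42, 6.94 and 6.73, 6.80 and 6.90, and 6.75 and 6.80 in the same order. Every DN4 array was below every DN2-3 array, and Ifitm1 changed by -1.30 ± 0.11 (adjusted p = 9.92e-07).

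Parp12, a mono-ADP-ribosyltransferase, was at 9.36 and 9.40 in B6g7, 8.94 and 9.43 in NOD, 8.83 and 8.80 in BDC/B6g7 and 8.69 and 8.68 in BDC/NOD DN2-3 cells. Its DN4 levels were 8.41 and 8.45, 8.70 and 8.83, 7.86 and 8.08, and 8.41 and 8.15 in that order. DN4 arrays were lower within each strain and genotype, and the averaged change was -0.66 ± 0.07 (limma adjusted p = 1.24e-05). Oasl2 changed by -0.74 ± 0.10 and Ifih1 by -0.60 ± 0.06, while Usp18, at 0.51 ± 0.09, was higher in DN4. The averaged Oasl2 value hides its contexts, since it changed by -1.44 and -1.65 in non-Tg B6g7 and NOD and by 0.13 and 0.02, not called, in the BDC groups. The averaged calls of Zbp1, Oas3 and Xaf1 were each lost under at least 10 of the 27 alternatives.

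The 5 members that were measured and not tested were low in every group. Ifit3, paired with Ifit1 in the IFIT complex, lay between 5.16 and 6.14 over the 16 arrays. Mx1 and Mx2, dynamin-like GTPases that trap viral particles, lay between 4.76 and 5.70 and between 4.92 and 6.33, and Mx1 was at background on every array. Ifi27l2a lay between 6.07 and 6.67, and Cmpk2, a mitochondrial nucleotide kinase, between 5.91 and 7.02. Oas1a, Oasl1, Tor3a and Trex1 were tested and not called in any of the 4 averaged comparisons. Of the 37 tested members 5 had a mean over all arrays under the filter and passed through a group where they were higher. These were Ifit1, Dhx58, Rsad2, Oas1a and Xaf1. Dhx58 passed only through B6g7 DN2-3, with a group mean of 7.27. Ifit1 passed only through B6g7 and NOD DN2-3, at 7.35 and 7.4. Xaf1 passed through the same groups, at 7.63 and 7.65, and through BDC/B6g7 DN4, at 7.39. Rsad2 passed through B6g7 DN2-3, at 7.28, and NOD DN4, at 7.10. Oas1a passed through B6g7 and NOD DN2-3, both at 7.07, and NOD DN4, at 7.09. Lower calls against those groups are thus for genes chosen by a high level there.

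The other genes of the pathway were followed with a list of 94 entries, 79 of them on the arrays. Of 16 ligand genes only 4 passed the filter, and Ifnb1, the gene of interferon beta, had group means of 5.07 to 5.18, below the background level. Ifng, the type II interferon, changed with the transgene by -1.03 ± 0.08 in DN2-3 (limma adjusted p = 5.06e-07) and by 0.42 ± 0.08 in DN4, and with the NOD strain by -0.37 ± 0.06. Averaged over the strains, Ifng was at 7.63 in non-Tg and 6.60 in BDC DN2-3 cells, and at 6.48 and 6.90 in DN4. Of these levels only 7.63 reaches the filter of 7.05. Its lower call in DN2-3 is thus against cells whose high level helped it to be tested. Ifng was the only ligand called in these 3 comparisons, each among 4 tested. Of all tested genes 19.3% were lower in BDC DN2-3, 28.7% higher in BDC DN4 and 14.9% lower in NOD.

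Of 12 receptor and kinase genes tested, 11 were higher in BDC DN4 cells, where 28.7% of all tested genes were called higher. In BDC DN2-3 cells 3 were higher and 1 lower, against 29.8% and 19.3% of all tested genes. Their median change was 0.66 in DN4 and 0.07 in DN2-3, against -0.03 and 0.05 over all tested genes. Ifngr2, a chain of the interferon gamma receptor, changed by 1.49 ± 0.09, Jak1 by 1.29 ± 0.08, Ifnar1 by 1.07 ± 0.07 and Socs3, a feedback inhibitor of cytokine receptors, by 0.99 ± 0.14. In NOD, 8 of the 12 were lower (14.9% of all genes), with a median of -0.23 against 0.04, led by Socs3 at -0.82 ± 0.10. Averaged over strains and genotypes, Il10rb (0.70) and Ifngr2 (0.58) were higher in DN4 than in DN2-3, and Socs3 (-0.67) and Socs1 (-0.58) were lower.

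Of 11 tested genes for other sensors and adaptors, 5 were lower in BDC DN2-3 cells, and 5 were higher and 1 lower in BDC DN4 cells, where 19.3% of all tested genes were lower in DN2-3 and 28.7% and 30.8% higher and lower in DN4. Their median changes were -0.06 and 0.24, against 0.05 and -0.03 over all tested genes. Unc93b1, which carries nucleic acid-sensing Toll-like receptors to endosomes, changed by -1.08 ± 0.12 in DN2-3, and Ikbke, a kinase that activates interferon regulatory factors, by 1.5 ± 0.10 in DN4. In NOD, 8 were lower and 1 was higher, the DNA sensor Aim2, at 0.79 ± 0.08, where 14.9% and 26.8% of all genes were so called, and the median was -0.18 against 0.04. Of 26 other interferon-induced genes that are not members, 19 were lower and 2 higher in BDC DN2-3 cells, and 19 were higher and 3 lower in BDC DN4 cells. Their medians were -0.38 and 0.55, against 0.05 and -0.03 over all tested genes. Slfn8 changed by -1.22 ± 0.08 in DN2-3, where Trim30d fell by at least 1.43. Averaged over the strains, Trim30d was at 7.61 in non-Tg and 5.94 in BDC DN2-3 cells. In DN4 it was at 5.78 and 6.86, under the filter of 7.05. Ddx60, also called lower, was at 6.96 against 5.38 in DN2-3. Lower calls of such genes are against cells whose high level helped them to be tested. In DN4, Sp100, a nuclear body protein, changed by 1.49 ± 0.07 and Helz2 by 1.08 ± 0.12. The 2 that were higher in BDC DN2-3 cells were Ifi30, a lysosomal thiol reductase, at 1.28 ± 0.06, and Slfn3, at 0.81 ± 0.19. In NOD, 15 were lower and 6 higher, with a median of -0.24 against 0.04 and with Epsti1 at -0.91 ± 0.07.

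Several members are neighbours in the genome, and neighbours did not always move together. Ifitm2, Ifitm1 and Ifitm3 are consecutive protein-coding genes on chromosome 7, and over the 8 group means Ifitm2 correlated with Ifitm1 at 0.88 and with Ifitm3 at 0.93. Parp14, Dtx3l and Parp9, consecutive on chromosome 16, correlated at 0.94 to 0.97. Oas2 and Oas3, adjacent on chromosome 5, correlated at 0.16, and Ifit1 and Ifit2, both on chromosome 19, at -0.36. Against the median of the other members over the same 8 means, Parp14 correlated at 0.95, Oasl2 at 0.94, and Ifit2 at -0.72, the lowest. These correlations are descriptions over 8 points that share arrays and normalization. Group means of Ifitm2 spanned 3.96 on the log2 scale and those of Usp18 2.50; the lowest Ifitm3 mean, 5.84 in BDC/B6g7 DN4, was under the background level, so its span has no exact value.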

How the data were processed

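Total RNA from sorted thymocytes was biotin-labelled and hybridised to Affymetrix arrays, per the labels' protocols. The authors deposited linear RMA intensity values, made with Affymetrix Power Tools per the submitters' processing notes; versions and settings are not given in the sources used here. Of 25108 probe sets, 21157 carried 1 gene symbol, 1341 several and 2610 none in GEO's annotation, which can be old. Deposited intensities were turned into log2 here with no further normalization, and the brightest probe set by mean log2 stood for a gene. Genes with a group mean of at least 7.05 (intensity 132.9) were tested with limma 3.58.1 (R 4.3.3): 8 group means, 8 residual and 5.06 prior degrees of freedom, Benjamini-Hochberg over all 10689 genes of a comparison, threshold 0.05, two-sided. The number of arrays limits the precision. "At least" marks changes computed with a group at background raised to 5.98 (intensity 63.1). The fit was tested on simulated data.

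Members and lists were chosen with earlier results of these data known. Per-array values were given for up to 6 called members with the largest change in each averaged comparison and up to 4 in an interaction, and values for up to 4 called genes of each pathway list; Irf9 and Bst2 in DN4, with per-array values, and members given by their change alone were added to account for every role. Replicate numbers are not stated to mark a shared animal or day: over 28 pairs of groups, same-numbered arrays' deviations correlated at -0.25 to 0.58 with a median of 0.05, so no block was used in the comparisons reported.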

Additional observations from a re-analysis of the deposited data

Results flagged for a closer look

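Differences between groups in the size of a change were picked out where limma called the interaction at an adjusted p under 0.05; each value below is a difference of log2 changes. In DN2-3 cells the transgene change was more negative in NOD than in B6g7 for Ifitm2, by -1.0, and for Ifitm3, by -1.91.

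In DN4 cells the transgene change in NOD minus that in B6g7 was Usp18 -1.08, Irf7 -0.75, Xaf1 -0.71, Stat2 -0.66, Irf9 -0.63, Nmi -0.63, Adar -0.62, Ddx58 -0.55 and Parp14 -0.50, and it was 0.92 for Ifit2.

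The transgene change in DN4 minus that in DN2-3 was positive for 23 members. The values were Zbp1 2.16, Ddx58 1.78, Ifit1 1.75, Oasl2 1.62, Usp18 1.60, Irf9 1.59, Rtp4 1.45 and Parp14 1.34. They were followed by Xaf1 1.28, Dtx3l 1.24, Irf7 1.21, Ifih1 1.0, Parp9 0.90, Oas3 0.82, Stat2 0.79 and Isg20 0.76. The smallest were Dhx58 0.74, Oas2 0.70, Adar 0.68, Nmi 0.67, Rsad2 0.51, Ifi35 0.36 and Trim25 0.23. It was negative for 4 members, with Ifitm3 -1.18, Ifitm2 -1.02, Ifit2 -0.87 and Bst2 -0.47. For Ifit1 the value with levels under background raised to it is 1.58, which is not a bound, since arrays on both sides of the difference are at background. The Ifitm3 value includes an array at background and is not exact.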

How the results depend on the processing

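Of 316 called values of single members over the comparisons, 177 were called under all 27 alternatives tried, and none changed sign under any of them; of 135 called values of other pathway genes 87 were so called, also with no change of sign. Without the 4 arrays of males, which leaves each BDC group with 1 array assumed to vary like the other groups, 97 of the 316 fell short of the threshold, against 28 with array weights, 33 when a comparison was fitted on its own arrays and 6 to 35 when 1 array was left out. The cause was not tested.

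Counts of called members that moved by over 1.5 times were as follows. For the strain in non-Tg DN2-3, 5 became 0 with array weights and 0 with only the arrays compared, where limma gave 6 and 8 at an unadjusted p under 0.05. For the strain in BDC DN2-3, 9 became 1 without the arrays of males. For the strain in non-Tg DN4, 5 became 3 with no filter, 3 with a second quantile normalization, 3 with sex as a term, 9 with array weights, 11 with only the arrays compared and 1 without males. For the strain in BDC DN4, 17 became 27 with array weights and 26 with only the arrays compared. For the transgene in B6g7 DN2-3, 22 became 8 without males, and in NOD DN2-3, 21 became 9 with only the arrays compared. For the transgene in NOD DN4, 11 became 17 with array weights, 17 with only the arrays compared and 5 without males. For the stage, 20 became 9 in non-Tg NOD with only the arrays compared, 24 became 10 in BDC/B6g7 without males, and 7 became 18, 16 and 1 in BDC/NOD with array weights, only the arrays compared and no males. For the strain-by-transgene difference, 2 became 1 with sex as a term and 0 with array weights, only the arrays compared or no males in DN2-3, where limma gave 7, 7 and 6 at an unadjusted p under 0.05. In DN4, 10 became 16 with array weights, 16 with only the arrays compared and 0 without males.

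With the replicate number as a block, the strain-by-transgene count in DN2-3 went from 2 to 1, and 3 of the 316 values fell short of the threshold; no other count moved by over 1.5 times. The numbers are not stated to pair the samples.

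With 1 array left out in turn, the strain counts ranged from 3 to 14 in non-Tg DN2-3, 3 to 10 in BDC DN2-3, 0 to 13 in non-Tg DN4, 14 to 24 in BDC DN4 and 16 to 24 averaged. The transgene counts ranged from 12 to 22 in B6g7 DN2-3, 18 to 25 in NOD DN2-3, 21 to 28 averaged in DN2-3, 21 to 27 in B6g7 DN4, 6 to 16 in NOD DN4 and 20 to 26 averaged in DN4. The stage counts ranged from 21 to 26 in non-Tg B6g7, 16 to 25 in non-Tg NOD, 15 to 25 in BDC/B6g7, 5 to 12 in BDC/NOD and 15 to 23 averaged. The interaction counts ranged from 0 to 13 for strain by transgene in DN2-3, 3 to 16 in DN4 and 24 to 30 for transgene by stage. Low signal limits Ifit3, Mx1, Mx2, Ifi27l2a and Cmpk2, which were not tested.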

Other observations

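The 2 arrays of a BDC DN4 group differed in 1 direction over the members. In BDC/B6g7 DN4, replicate 1, from a male, was above replicate 2, from a female, in 4 of the 42 measured members, with a median difference of -0.21. In BDC/NOD DN4, with the same assignment, replicate 1 was above in 32 of 42, with a median difference of 0.09. Each group holds 1 array of either sex, so sex and sample cannot be told apart within it.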
